A study of Mus musculus with 12 samples.

Results

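Pkd1, Pkd2, Pkhd1, Bicc1, Ganab, Dnajb11, Dzip1l, Glis2 and Glis3 are genes whose inherited mutations give polycystic or related cystic kidneys in humans or mice. Their rows were found by gene symbol in a count table of 46403 genes from mouse kidneys. All 9 were present, and all 9 were among the 23742 genes that passed the filter on low counts and were tested. The rule that names them rests on their known disease role and uses no measured value, though earlier results of these libraries were known when it was written.

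The series asked how Grhl2, an epithelial transcription factor, bears on cyst growth in a mouse model, and holds 12 libraries of polyadenylated RNA, each from an entire right kidney. The Grhl2KO_Myc kidneys (n = 4) are labelled as Grhl2 knockout with Myc overexpression. They came from a cross of mice carrying HoxB7-Cre and Grhl2flox/+ to mice carrying R26StopFLMYC and Grhl2flox/flox. The Myc kidneys (n = 3) are labelled as Myc overexpression, and neither their cross nor their Grhl2 alleles could be read from the labels; their library names hold the letters HET. The wildtype kidneys (n = 5) carried R26StopFLMYC and Grhl2 flox/flox, so the controls too hold both floxed Grhl2 alleles and the MYC transgene, which stays silent behind a stop cassette until Cre removes it. HoxB7-Cre is active in the embryonic ureteric bud and hence in collecting ducts, while most RNA of a whole kidney comes from other segments. The mice were untreated, and no age is stated.

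Polycystin-1, encoded by Pkd1, is a large receptor-like membrane protein that assembles with polycystin-2, a cation channel encoded by Pkd2, and both act on the primary cilium of tubule cells. Tubules that lose either protein proliferate and dilate into cysts, and the level of functional polycystin-1 is known to set how severe the disease is. Fibrocystin from Pkhd1 lies on the same cilium, glucosidase II and the co-chaperone DNAJB11 mature polycystin-1 in the endoplasmic reticulum, DZIP1L serves the ciliary transition zone, BICC1 binds messenger RNA, and GLIS2 and GLIS3 are zinc finger transcription factors. Overexpression of Myc in the tubules of transgenic mice is known to give polycystic kidneys.

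Total counts lay between 75187006 and 108164810 in Grhl2KO_Myc libraries, between 70608817 and 101043826 in Myc libraries and between 52973520 and 98713157 in wildtype libraries. The labels do not say that replicates came from separate mice, so a p-value here covers the spread between libraries, which may be technical. Grhl2 itself had 18.5, 19.0, 24.3 and 22.3 CPM (counts scaled to a common library size, with TMM normalization) in Grhl2KO_Myc kidneys, 28.5, 33.1 and 28.2 CPM in Myc kidneys and 29.3, 24.9, 25.6, 23.9 and 25.2 CPM in wildtype kidneys. It was lower in Grhl2KO_Myc than in Myc kidneys (log2 fold change -0.51, SE 0.104, edgeR adjusted p = 0.044), a call that holds in 3 of 12 fits that leave out 1 library each (adjusted p 0.024 to 0.21). Against wildtype the adjusted p was 0.082. The gene row named Myc had 30.1 ± 2.23 CPM in Grhl2KO_Myc, 23.6 ± 4.25 CPM in Myc and 26.7 ± 6.06 CPM in wildtype kidneys (SD), with adjusted p of 0.42 or more in each comparison, and no source states whether the transgene is counted under this name. Markers of the kidney were present throughout: 12 proximal tubule markers summed to 954 to 2132 CPM in Grhl2KO_Myc, 2329 to 3103 CPM in Myc and 735 to 3718 CPM in wildtype kidneys. Their list score, the mean log2 CPM relative to the mean of all libraries, was low in Grhl2KO_Myc 3 (-1.23), Grhl2KO_Myc 4 (-1.15) and wildtype 4 (-1.72) and lay between -0.08 and 0.99 in the other libraries. These 3 libraries stand apart, and results that move with them are given with and without them. Myc 1 stands apart in another way, with 5.55% of its counts in the rows Yam1, Rn18s-rs5 and Lars2, which take up reads of ribosomal RNA, against 0.161% to 0.581% in the other libraries. The sexes were not balanced, as read from transcripts over 10 CPM. Xist was present in 1 of 4 Grhl2KO_Myc, 2 of 3 Myc and 4 of 5 wildtype libraries, and Y-linked Ddx3y in 2 of 4 Grhl2KO_Myc, 1 of 3 Myc and 1 of 5 wildtype libraries. Grhl2KO_Myc 3 had neither (Xist 0.213 CPM, Ddx3y 0 counts).

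All 9 genes were measured in every library, and their order was nearly the same in each genotype. Per kilobase of the gene width in the deposited table, Ganab was the most abundant at 69.0 ± 2.60 CPM per kb in Grhl2KO_Myc, 71.1 ± 2.67 in Myc and 69.5 ± 5.78 in wildtype kidneys (SD). Glis2 followed at 28.5 ± 1.71, 37.4 ± 0.348 and 37.7 ± 5.45 CPM per kb in the same genotypes, and Bicc1 at 25.6 ± 1.24, 28.5 ± 2.29 and 28.1 ± 1.85 CPM per kb. The ranges of Glis2 and Bicc1 overlapped in Grhl2KO_Myc and wildtype libraries and did not in Myc libraries. Dnajb11 came next, then Pkd2 at 14.0 ± 0.672, 16.0 ± 0.512 and 16.8 ± 1.36 CPM per kb and Pkd1 at 6.82 ± 0.407, 7.04 ± 0.179 and 7.28 ± 0.643 CPM per kb. Dzip1l followed Pkd1, and Glis3 and Pkhd1 closed the order with overlapping ranges in every genotype. The widths of Ganab (3862 bases) and Pkd1 (14170 bases) in the table are shorter than the exons of GENCODE M21 (5454 and 17415 bases), so their level per kilobase depends on the annotation used.

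Because Myc is known to drive the miR-17 family and miR-17 is known to repress Pkd1 and Pkd2 in cystic kidneys, the sequence of miR-17-5p and its matches in the genes are shown. The mature sequence below is from RefSeq (GRCm38.p6, chr14:115043684-115043706, plus strand), with its seed, bases 2 to 8, in capitals. The 29-base windows are from the longest annotated 3′ UTR of each gene (GENCODE M21, mm10), written on the gene's strand with the seed match in capitals, from chr17:24595721-24595749 (plus) for Pkd1, chr5:104503810-104503838 (plus) for Pkd2, chr10:70924737-70924765 (minus) for Bicc1 and chr19:28259533-28259561 (minus) for Glis3.
miR-17-5p: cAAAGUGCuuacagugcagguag
Pkd1: atggggcttctGCACTTTaaaaaggctgt
Pkd2: tataattttctGCACTTTaatttatttta
Bicc1: gaggtcttccaGCACTTTacacggtctag
Glis3: gctgacataaaGCACTTTggggggggagg
The letters GCACTTT stand once in each of these 4 genes and in none of the other 5, and they stand in 11.7% of the longest 3′ UTRs of 21092 genes. A match is a description of the letters and not evidence of a working site. The miRNAs themselves were not measured in these libraries. Mir17hg, the host transcript of miR-17, was looked at after its values were seen. It had 34.99, 22.5, 29.2 and 24.8 CPM in Grhl2KO_Myc kidneys, 15.7, 20.6 and 22.6 CPM in Myc kidneys and 14.6, 17.9, 19.4, 24.1 and 16.5 CPM in wildtype kidneys. It was higher in Grhl2KO_Myc than in wildtype kidneys at the edge of the threshold (log2 fold change 0.59, SE 0.163, edgeR adjusted p = 0.0499). That call held in 2 of 12 fits that leave out 1 library each (adjusted p 0.0091 to 0.14), and the values of Grhl2KO_Myc 2 and wildtype 4 overlap.

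Between Grhl2KO_Myc and wildtype kidneys, Pkd2, Glis2 and Glis3 fell and no member rose. The falls were between 16.2% and 24.4%. Pkhd1 had the largest difference of the 9 genes, 29.6% lower with a 95% interval from 49.9% to 1.11% lower, and did not pass the test over all genes. In the edgeR quasi-likelihood fit with Benjamini-Hochberg adjustment, 3 of 9 genes were lower, against 2.61% of the 23742 genes tested, and 0 of 9 were higher, against 4.06%. Only Glis3 had libraries that did not overlap between these genotypes, 1 of 9 genes against 9.47% of all genes. Of the 9 genes, 4 had an unadjusted p under 0.05, against 21.95% of all genes, and 8 of the 9 log2 fold changes were below 0. Their median was -0.13, against -0.0074 over all genes tested.

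**Figure D1:**
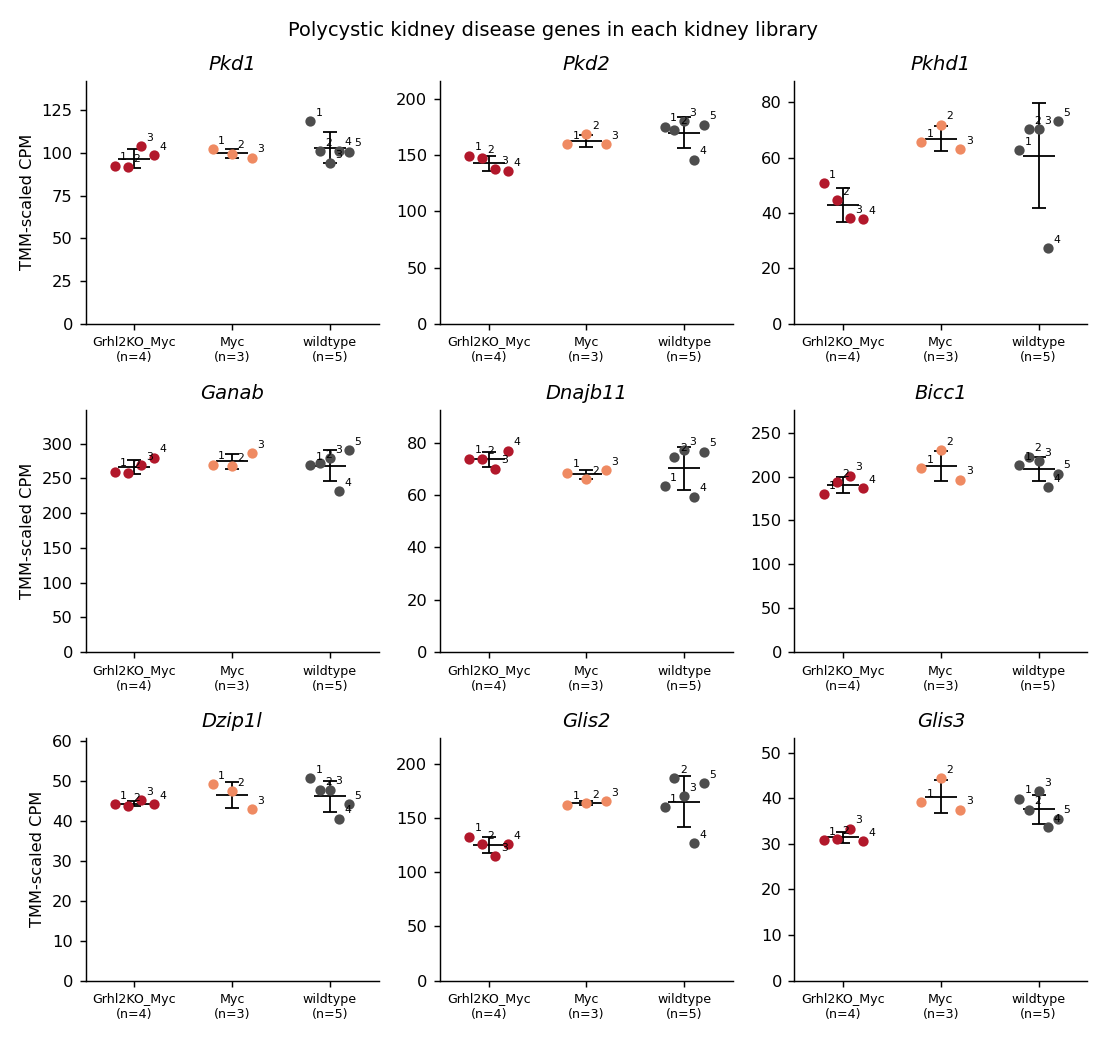
TMM-scaled CPM (vertical axes, from 0) of each gene in the 4 Grhl2KO_Myc, 3 Myc and 5 wildtype libraries; points are libraries with their replicate number, and bars give the mean and SD. Pkhd1 lies between 37.7 and 50.7 CPM in Grhl2KO_Myc kidneys and between 63.1 and 72.0 CPM in Myc kidneys, and wildtype 4 (27.4 CPM) lies far below the other wildtype libraries.

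Between Grhl2KO_Myc and Myc kidneys, no member passed the test, yet the libraries of 5 genes did not overlap. Pkd2, Pkhd1, Glis2 and Glis3 were lower in every Grhl2KO_Myc library than in every Myc library, and Dnajb11 was higher in every one. These 5 of 9 genes stand against 16.8% of all genes without overlap. By edgeR 0 of 9 genes were called higher, against 0.358% of all genes, and 0 of 9 lower, against 0.484%. The count at an unadjusted edgeR p under 0.05 was 4 of 9, against 13.3% of all genes. DESeq2 called 2 (Glis2 and Glis3), against 3.30% of all genes, and limma-voom called 0, against 1.09%. The median log2 fold change of the 9 genes was -0.16, against 0.0023 over all genes tested. This comparison shares its Grhl2KO_Myc libraries with the one against wildtype, so the 2 sets of values are given side by side and are not separate evidence.

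Between Myc and wildtype kidneys, none of the 9 genes differed detectably. The log2 fold changes lay between -0.06 (Pkd2) and 0.14 (Pkhd1), with a median of 0.01. By edgeR 0 of 9 genes were called, against 0.00421% of all genes higher and 0% lower, 0 of 9 had an unadjusted p under 0.05, and DESeq2 and limma-voom called 0 as well. No member had libraries without overlap, against 3.57% of all genes. The intervals bound the difference at this depth: from 12.9% lower to 7.45% higher for Pkd1, from 13.7% lower to 6.03% higher for Pkd2, and for the more variable Pkhd1 from 23.5% lower to 58.7% higher.

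**Figure D2:**
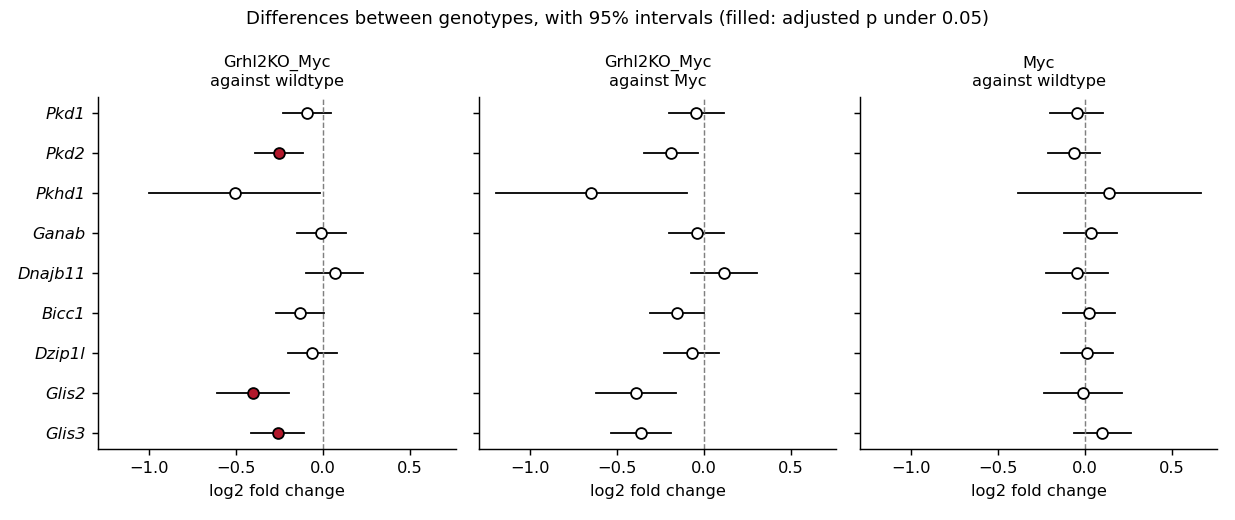
Log2 fold change (horizontal axis) of each gene in the 3 comparisons with its 95% interval; filled points have an edgeR adjusted p under 0.05. Pkd2, Glis2 and Glis3 are filled in the comparison of Grhl2KO_Myc with wildtype kidneys, and no point is filled in the other comparisons.

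Of the polycystins, Pkd2 was lower in Grhl2KO_Myc kidneys and Pkd1 was not detectably changed. Pkd2 had 149.6, 148, 138 and 136 CPM in Grhl2KO_Myc kidneys, 159.9, 169 and 160.1 CPM in Myc kidneys and 175, 173, 180.3, 146 and 177 CPM in wildtype kidneys. Every Grhl2KO_Myc library was below every Myc library and below all wildtype libraries but wildtype 4. The fall against wildtype was 16.2% (log2 fold change -0.25, SE 0.063, edgeR adjusted p = 0.032), and against Myc the log2 fold change was -0.19 (SE 0.071, adjusted p = 0.27). Pkd1 had 92.5, 91.6, 103.9 and 98.8 CPM in Grhl2KO_Myc kidneys, 102, 99.7 and 97.3 CPM in Myc kidneys and 118, 101, 94.0, 101 and 101 CPM in wildtype kidneys, so that all groups overlapped. Its difference from wildtype was -6.26%, with a 95% interval from -14.9% to 3.24% (edgeR adjusted p = 0.43), and against Myc it was -3.09%, from -13.2% to 8.14%. Pkd1 shares 693 exon bases, 3.98% of its exons, with Tsc2 on the other strand, and the library kit does not mark strand, so reads there cannot be told apart.

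The ratio of the channel to the receptor transcript within a library does not depend on scaling. Per kilobase, Pkd2 stood at 2.07 ± 0.213 times Pkd1 in Grhl2KO_Myc, 2.28 ± 0.0944 in Myc and 2.31 ± 0.277 in wildtype kidneys (SD, n = 4, 3 and 5). An exact two-sided permutation test gave p = 0.222 for Grhl2KO_Myc against wildtype and p = 0.229 against Myc. Pkhd1 over Pkd1 was 0.441 ± 0.0860 in Grhl2KO_Myc, 0.664 ± 0.0444 in Myc and 0.588 ± 0.198 in wildtype kidneys. The Grhl2KO_Myc and Myc ratios did not overlap, with an exact permutation p = 0.0571, the smallest that 4 against 3 libraries allow, and 0.257 after adjustment over the 9 ratio tests. Against wildtype the exact permutation p for this ratio was 0.317.

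Pkhd1, which encodes fibrocystin, the protein lost in autosomal recessive polycystic kidney disease, varied more between replicates than the other 8 genes in Grhl2KO_Myc and wildtype kidneys. It had 50.7, 44.5, 38.0 and 37.7 CPM in Grhl2KO_Myc kidneys, 65.6, 72.0 and 63.1 CPM in Myc kidneys and 62.8, 70.2, 70.3, 27.4 and 73.1 CPM in wildtype kidneys. Wildtype 4 was the lowest of all libraries, and without it the Grhl2KO_Myc range lies below both other groups. With every library the log2 fold change was -0.51 against wildtype (SE 0.226, edgeR adjusted p = 0.21) and -0.65 against Myc (SE 0.253, adjusted p = 0.29). Without wildtype 4 these were -0.69 (adjusted p = 0.00075) and -0.65 (adjusted p = 0.0060). Without the 3 libraries low in proximal tubule transcripts they were -0.54 (adjusted p = 0.0051) and -0.49 (adjusted p = 0.022). With that score as a covariate they were -0.14 (adjusted p = 0.44) and -0.23 (adjusted p = 0.40). In bulk kidney, fewer cells of a type and less RNA per cell cannot be told apart.

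Promoters of Pkd1, Pkd2, Pkhd1, Ganab, Dnajb11, Dzip1l and Glis3 from RefSeq (GRCm38.p6), from 250 bases before to 50 bases after the start, were searched for motifs of Grhl factors and of Myc. The Grhl motif AACCNGTT and the E-box CACGTG bound by Myc were found in none of the 7 genes on either strand, while 1.96% and 7.09% of all promoters hold them, and nothing about either factor follows from this window.

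Neither of the maturation genes passed the test. Ganab, the catalytic subunit of glucosidase II, which trims sugars of newly made glycoproteins, had 259.6, 258, 269 and 279 CPM in Grhl2KO_Myc kidneys, 269.7, 267 and 286 CPM in Myc kidneys and 269, 271, 279, 231 and 291 CPM in wildtype kidneys. Its difference from wildtype was -0.708%, with a 95% interval from -9.81% to 9.31%. Dnajb11, a co-chaperone of the endoplasmic reticulum protein BiP, had 73.9, 73.6, 70.1 and 77.0 CPM in Grhl2KO_Myc kidneys, 68.5, 66.1 and 69.5 CPM in Myc kidneys and 63.5, 74.7, 77.3, 59.5 and 76.6 CPM in wildtype kidneys. Every Grhl2KO_Myc library was above every Myc library, while the wildtype range covered both. The log2 fold change of Dnajb11 was 0.11 against Myc (SE 0.086, edgeR adjusted p = 0.60) and 0.07 against wildtype (SE 0.075, adjusted p = 0.65). Dnajb11 over Ganab per kilobase was 0.330 ± 0.0140 in Grhl2KO_Myc, 0.296 ± 0.00671 in Myc and 0.312 ± 0.0199 in wildtype kidneys. Its exact permutation p was 0.0571 against Myc, without overlap and again the smallest possible (0.257 adjusted), and 0.159 against wildtype (0.375 adjusted).

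Bicc1 and Dzip1l showed no detectable difference in either comparison with Grhl2KO_Myc. Bicc1, whose loss gives cystic kidneys in mice, had 179.8, 194, 201 and 187 CPM in Grhl2KO_Myc kidneys, 209, 230.3 and 197 CPM in Myc kidneys and 213, 222, 218, 188 and 203 CPM in wildtype kidneys. Only the highest Grhl2KO_Myc library overlapped the Myc range. The difference was -8.86% against wildtype, with a 95% interval from -17.2% to 0.333% (edgeR adjusted p = 0.24), and -10.3% against Myc, from -19.5% to 0.0541% (adjusted p = 0.38). Dzip1l, a gene of autosomal recessive polycystic kidney disease, had 44.2, 43.7, 45.2 and 44.2 CPM in Grhl2KO_Myc kidneys, 49.3, 47.4 and 43.0 CPM in Myc kidneys and 50.7, 47.7, 47.8, 40.6 and 44.3 CPM in wildtype kidneys. The 4 Grhl2KO_Myc libraries lay close together inside the range of both other groups, and the differences were -4.16% against wildtype (from -12.9% to 5.48%) and -4.83% against Myc (from -14.6% to 6.10%). Bicc1 shares 349 exon bases (4.69%) with the antisense gene 4930533K18Rik, which averaged 20.5 CPM.

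Glis2 and Glis3, zinc finger relatives of the Gli factors, were both lower in Grhl2KO_Myc kidneys. Glis2, mutated in a form of the cystic disease nephronophthisis, had 133, 125.8, 115 and 125.6 CPM in Grhl2KO_Myc kidneys, 162, 163 and 165 CPM in Myc kidneys and 160.0, 186, 169.7, 127 and 182 CPM in wildtype kidneys. All wildtype libraries but wildtype 4 were above the Grhl2KO_Myc range, and the Myc libraries were above it too. The fall against wildtype was 24.4% (log2 fold change -0.40, SE 0.095, edgeR adjusted p = 0.027), and against Myc the log2 fold change was -0.39 (SE 0.107, adjusted p = 0.13). Glis3, mutated in a syndrome of neonatal diabetes with cystic kidneys, had 30.8, 31.0, 33.3 and 30.6 CPM in Grhl2KO_Myc kidneys, 39.1, 44.4 and 37.5 CPM in Myc kidneys and 39.9, 37.5, 41.6, 33.7 and 35.6 CPM in wildtype kidneys. Every Grhl2KO_Myc library was below every other library, though the highest of them (33.3 CPM) was close to wildtype 4 (33.7 CPM). The fall against wildtype was 16.5% (log2 fold change -0.26, SE 0.070, edgeR adjusted p = 0.046), and against Myc the log2 fold change was -0.36 (SE 0.079, adjusted p = 0.061). Glis2 shares 455 exon bases (10.4%) with Pam16 on the other strand, which had 14.4 ± 0.808 CPM in Grhl2KO_Myc, 14.3 ± 1.03 CPM in Myc and 14.5 ± 0.951 CPM in wildtype kidneys.

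The falls are set here beside the tubule makeup of the libraries. Whether the genes differ in how they move with it was not tested. Grhl2KO_Myc 3 and Grhl2KO_Myc 4, low in proximal tubule markers, had the lowest Pkd2 (138 and 136 CPM) and Pkhd1 (38.0 and 37.7 CPM) of their group. Wildtype 4 had the lowest value of its own group for every member but Pkd1, so this was not particular to the genes that fell. With the score of these markers as a covariate, the log2 fold change against wildtype was -0.19 for Pkd2 (edgeR adjusted p = 0.011), -0.28 for Glis2 (adjusted p = 0.0050) and -0.24 for Glis3 (adjusted p = 0.061). Without all 3 libraries it was -0.25 for Pkd2 (adjusted p = 0.0095), -0.44 for Glis2 (adjusted p = 0.0047) and -0.33 for Glis3 (adjusted p = 0.035), from 2 Grhl2KO_Myc and 4 wildtype libraries. All 12 proximal tubule markers were lower in Grhl2KO_Myc than in wildtype kidneys by their fitted values, with a median log2 fold change of -0.71, and 0 of 12 passed the test. Against wildtype 1 of the 5 markers of the distal convoluted tubule was called lower, against 2.61% of all genes. These 5 summed to 403 to 596 CPM in Grhl2KO_Myc, 651 to 728 CPM in Myc and 643 to 809 CPM in wildtype kidneys. The 8 markers of the principal cell, a cell type of the collecting duct, summed to 654 to 797 CPM, 698 to 828 CPM and 557 to 889 CPM in the same genotypes. Their list score was lower in every Grhl2KO_Myc library (-0.32 to -0.10) than in Myc (0.11 to 0.21) and wildtype libraries (-0.08 to 0.12). Against wildtype 4 of the 8 fitted values were above 0 and 4 below, and against Myc 3 and 5, with 0 called higher. Hsd11b2 was higher in every Grhl2KO_Myc library (91.4 to 103 CPM) than in Myc (66.7 to 83.3 CPM) and wildtype libraries (25.7 to 75.4 CPM). In either direction 3 of 8 markers did not overlap against wildtype and 6 against Myc, beside 9.47% and 16.8% of all genes. Of the 8 markers, 2 were called lower against both genotypes by edgeR. Of all genes, 2.61% were lower against wildtype and 0.484% against Myc. Elf5, a transcription factor, had log2 fold changes of -1.90 against wildtype (adjusted p = 3.55e-06) and -2.14 against Myc (adjusted p = 4.55e-06), and the vasopressin receptor gene Avpr2 had -0.93 (adjusted p = 0.00029) and -1.001 (adjusted p = 0.00090). The 6 intercalated cell markers summed to 85.6 to 99.6 CPM in Grhl2KO_Myc, 114 to 139 CPM in Myc and 66.0 to 98.2 CPM in wildtype kidneys. Single markers moved in opposite directions against wildtype, with log2 fold changes from -1.63 to 0.64. By edgeR 1 of 6 was called higher, against 4.06% of all genes, and 1 lower, against 2.61%. Against Myc all 6 fitted values were below 0, and 2 were called lower, against 0.484% of all genes.

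Some podocyte and endothelial markers were called lower against wildtype as well. Those of the thick ascending limb had 0 of 5 calls, yet all 5 fitted values were below 0. Of these, 4 had an unadjusted edgeR p under 0.05, against 21.95% of all genes. So had 4 of 5 podocyte, 5 of 6 endothelial, 5 of 5 distal convoluted tubule and 2 of 12 proximal tubule markers. The median log2 fold change of the thick ascending limb markers was -0.41, against -0.36 for podocyte and -0.24 for endothelial markers. The 5 thick ascending limb markers summed to 687 to 959 CPM in Grhl2KO_Myc kidneys, below every Myc library (1012 to 1260 CPM) and overlapping the lower part of the wildtype range (750.0 to 1352 CPM). The 5 podocyte markers summed to 638 to 705 CPM in Grhl2KO_Myc, 688 to 837 CPM in Myc and 862 to 939 CPM in wildtype kidneys. Of these, 2 of 5 were called lower against wildtype, against 2.61% of all genes. The 6 endothelial markers summed to 467 to 497 CPM in Grhl2KO_Myc, 485 to 523 CPM in Myc and 528 to 582 CPM in wildtype kidneys. Of these, 3 of 6 were called lower against wildtype, against the same 2.61%. Neither the podocyte nor the endothelial list overlapped between Grhl2KO_Myc and wildtype libraries in its summed level, and both overlapped between Grhl2KO_Myc and Myc libraries. The part of cell types other than the proximal tubule in the differences of Pkd2, Pkhd1, Glis2 and Glis3 was not tested.

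**Figure D3:**
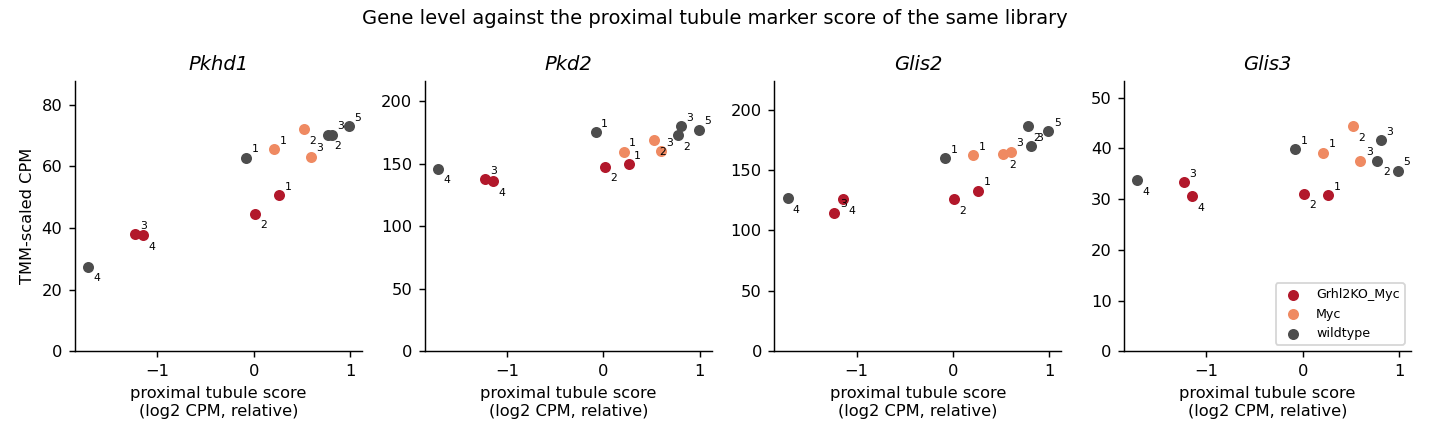
TMM-scaled CPM (vertical axes, from 0) of Pkhd1, Pkd2, Glis2 and Glis3 against the proximal tubule score of the same library (horizontal axes, log2 CPM relative to the mean of the 12 libraries); points carry replicate numbers. Grhl2KO_Myc 3, Grhl2KO_Myc 4 and wildtype 4 have scores of -1.23, -1.15 and -1.72, and Pkhd1 is lowest in these 3 libraries.

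The calls changed when single libraries were left out. Of 12 fits that each leave out 1 library, the comparison of Grhl2KO_Myc with wildtype gave 0 called members without Grhl2KO_Myc 2, 3 or 4 and without wildtype 1, 2, 3 or 5. It gave 2 (Pkd2 and Glis2) without Grhl2KO_Myc 1 or Myc 1, 3 without Myc 2 or Myc 3, and 4 without wildtype 4, where Pkhd1 was added. The calls over all genes moved too, to 15.9% of genes without wildtype 4, against 3.18% to 5.37% in the other 11 fits. Across these fits the edgeR adjusted p lay between 0.00097 and 0.098 for Pkd2, between 0.00043 and 0.082 for Glis2 and between 0.010 and 0.12 for Glis3. Their log2 fold changes stayed negative in every such fit, between -0.31 and -0.23 for Pkd2, between -0.48 and -0.36 for Glis2 and between -0.30 and -0.23 for Glis3. Against Myc the count was 0 in 11 of the fits and 4 without wildtype 4 (Pkd2, Pkhd1, Glis2 and Glis3, edgeR adjusted p 0.0060 to 0.049). Wildtype 4 is in neither group of that comparison and enters it only through the shared gene filter, scaling and estimate of the spread. Without it 2.96% of all genes were called against Myc, and 0.288% to 0.771% in the other 11 fits. A fit of only Grhl2KO_Myc and wildtype libraries called 0 members, with adjusted p of 0.064 for Pkd2, 0.058 for Glis2 and 0.059 for Glis3. With a term for Y-linked transcripts, in which Grhl2KO_Myc 3 counts as lacking them, the adjusted p was 0.057 for Pkd2, 0.030 for Glis2 and 0.087 for Glis3, at log2 fold changes of -0.26, -0.43 and -0.23.

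**Figure D4:**
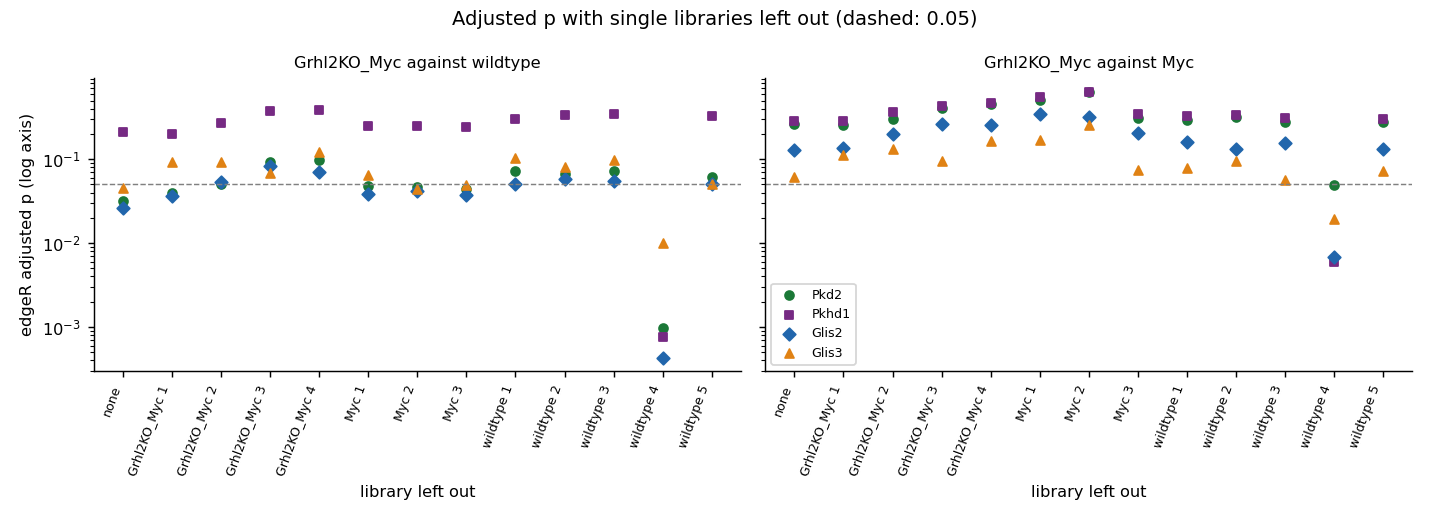
EdgeR adjusted p (log axis) of Pkd2, Pkhd1, Glis2 and Glis3 with every library (none) and with each library left out, for Grhl2KO_Myc against wildtype (left) and against Myc (right); the dashed line is 0.05. Leaving out wildtype 4 brings all 4 genes below the line in both comparisons.

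Several members moved together over the 12 libraries. The highest Pearson r of log2 CPM among them was 0.92 for Pkd2 with Glis2, followed by 0.89 for Pkhd1 with Glis2 and 0.89 for Bicc1 with Glis3. Pkd1 stood apart, with r between -0.54 (Dnajb11) and 0.49 (Dzip1l). Dnajb11 did too, with r of 0.65 for Ganab and between -0.54 (Pkd1) and 0.33 (Pkhd1) for the rest. The libraries share genotype and tubule makeup, so these values are descriptions. Of 14408 genes, the profiles most like Pkd2 were those of Slc9a3, the sodium-proton exchanger of the proximal tubule (r = 0.985), Lzts3 (0.967) and Iqsec1 (0.963). Iqsec1 (0.975) and Lzts3 (0.972) also led for Glis2, with Trabd2b (0.965). Slc22a30, an organic anion transporter family member, led for Pkhd1 (0.980), with Slc18b1 (0.980) and Arhgap32 (0.976). Hspa5, which encodes BiP, the partner of DNAJB11, led for Dnajb11 (0.920), with Map2k1 (0.906) and Bbs7 (0.883). For Pkd1 they were Tnrc6c (0.957), Brd3 (0.928) and Socs7 (0.917). For Bicc1 they were Maml3 (0.964), Fhod3 (0.960) and Zfp609 (0.950), and for Glis3 Ogt (0.971), Pign (0.954) and Phc3 (0.950). Cyb5b (0.961), Phkb (0.952) and Serpinh1 (0.948) were most like Ganab, and Kcnd3 (0.951), Cep250 (0.932) and Zbtb41 (0.928) most like Dzip1l.

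The genes around the polycystins mostly did not pass the test. Muc1, a mucin of the apical membrane mutated in a dominant tubulointerstitial kidney disease, was the exception among the 7 lists examined. It had 23.9, 28.4, 21.8 and 21.5 CPM in Grhl2KO_Myc kidneys, 34.7, 36.5 and 34.9 CPM in Myc kidneys and 40.1, 36.1, 34.0, 34.6 and 33.6 CPM in wildtype kidneys. Every Grhl2KO_Myc library was below every other library. Muc1 fell against wildtype (log2 fold change -0.58, SE 0.084, edgeR adjusted p = 0.0019) and against Myc (-0.57, SE 0.094, adjusted p = 0.016). Against wildtype it passed in all 12 fits that leave out 1 library (adjusted p 0.00059 to 0.0096). Against Myc it passed in 7 of 12 (adjusted p 0.0026 to 0.088) and missed the threshold without Grhl2KO_Myc 3, Grhl2KO_Myc 4, Myc 1, Myc 2 or Myc 3. It was the 1 called gene of 9 in the list of other inherited cystic kidney genes, whose median log2 fold change was -0.03 against wildtype and -0.05 against Myc. Tsc1, the hamartin gene, was at -0.19 against wildtype (adjusted p = 0.077).

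The list of polycystin maturation holds genes of glycosylation, protein translocation and the unfolded protein response, and 0 of its 10 genes passed in either comparison with Grhl2KO_Myc. Its median log2 fold change was 0.15 against wildtype and 0.09 against Myc, and 5 and 2 of its 10 genes had an unadjusted p under 0.05, against 21.95% and 13.3% of all genes. Under other fits against wildtype, DESeq2 called Sec61b and Alg5, and the proximal tubule covariate called Xbp1 and Hspa5. Sec61b, a subunit of the translocation channel, had a log2 fold change of 0.26 against wildtype (SE 0.081, edgeR adjusted p = 0.078). Alg5, an enzyme of glycan assembly, was at 0.18 (adjusted p = 0.083), and Xbp1, a transcription factor of the unfolded protein response, at 0.18 (adjusted p = 0.10). Xbp1, Alg5 and Hspa5 were higher in every Grhl2KO_Myc library than in every Myc library, with edgeR adjusted p of 0.21, 0.29 and 0.48. These 3 of 10 genes stand against 16.8% of all genes without overlap in that comparison. Hspa5 had 651 ± 32.9 CPM in Grhl2KO_Myc, 538 ± 37.0 CPM in Myc and 549 ± 113.8 CPM in wildtype kidneys (SD), and its adjusted p was 0.31 against wildtype.

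Among 7 genes of the Glis and Gli network 0 passed, with median log2 fold changes of -0.18 against wildtype and -0.09 against Myc. Gli3, a repressor of Hedgehog signalling, was at -0.26 against wildtype (edgeR adjusted p = 0.071), with all Grhl2KO_Myc libraries below all wildtype libraries. It was the 1 of 7 without overlap there, against 9.47% of all genes. Glis1, the third Glis factor, was at -0.36 (adjusted p = 0.14).

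Of the 8 Bicc1 partners 0 passed, with medians of -0.06 against wildtype and -0.12 against Myc. Adcy6, an adenylyl cyclase whose transcript BICC1 is known to bind in mice, was nearest to the threshold, at -0.20 against wildtype (edgeR adjusted p = 0.086). Of the 8 trafficking genes 0 passed, with medians of 0.01 and -0.01, led by Ift20 at 0.13 against wildtype (adjusted p = 0.13). Of the 6 other polycystin family members 4 were measured above the filter and 0 passed. Among the 5 transcripts known to rise in cystic kidneys, Lcn2, Havcr1, Ccl2, Spp1 and Postn, 0 passed. Ccl2 had the largest fitted difference of these, 2.01 against wildtype (SE 0.877, adjusted p = 0.20), and 1 library carried it. Ccl2 stood at 0.490, 5.20, 0.245 and 0.301 CPM in Grhl2KO_Myc kidneys, against 0.144 to 0.890 CPM in wildtype kidneys, so that only Grhl2KO_Myc 2 lay outside the wildtype range. Spp1, encoding osteopontin, was at -0.33 against wildtype (adjusted p = 0.57). In the comparison of Myc with wildtype 0 genes passed in every one of the 7 lists.

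**Figure D5:**
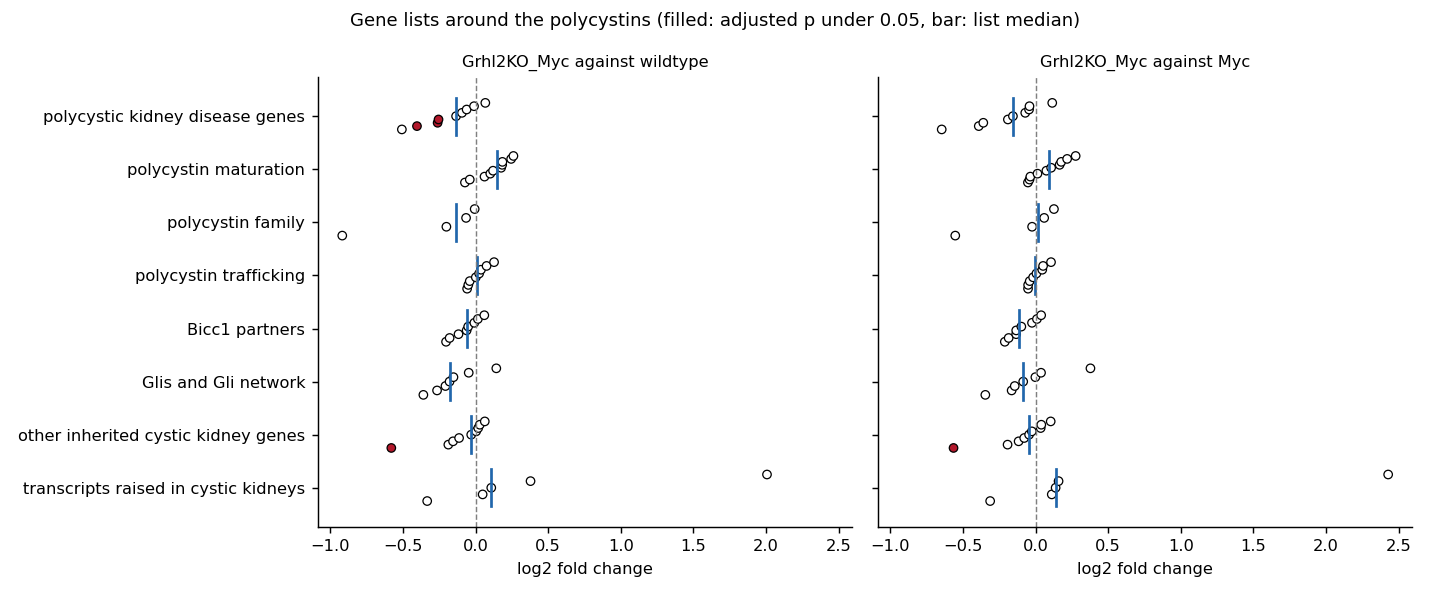
Log2 fold change (horizontal axis) of each tested gene in the polycystic kidney disease genes and the 7 lists around them, for Grhl2KO_Myc against wildtype (left) and against Myc (right); filled points have an edgeR adjusted p under 0.05 and bars mark list medians. Muc1 is the filled point of the other inherited cystic kidney genes in both panels, and the median of the polycystin maturation genes is 0.15 on the left.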

How the data were processed

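RNA of the entire right kidney was made into polyA libraries with a TruSeq kit that does not mark strand, per the labels' protocols. Reads were aligned with HISAT2 to mm10, per the submitters' processing notes; no source used here names the counting program or its annotation. The authors deposited raw counts per gene with a gene width, not normalized, and 0 columns belonged to other samples. Symbols were matched to GENCODE M21 for 90.6% of 46403 genes. Groups follow the genotype label. Replicates differed by more than sampling noise (smallest chi-square per degree of freedom 12.7), so each library counts once.

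Counts were tested with edgeR 4.0.16 in R 4.3.3 (TMM scaling, its default expression filter, quasi-likelihood F test, all 12 libraries in 1 fit, Benjamini-Hochberg over 23742 genes, threshold 0.05), after the script was tested on simulated data. Intervals are 95%. CPM are TMM-scaled, and log2 values use a prior count of 2. Ratios were tested with exact permutation over libraries (scipy 1.17.1) and adjusted over 9 tests. Alternatives were other scalings and filters, DESeq2 1.42.0, limma-voom 3.58.1, only the 2 groups compared, a term for the presence of Y-linked transcripts, the proximal tubule score as a covariate, a replicate block, and leaving out libraries. The 9 genes and all lists were chosen with earlier results of these data known. All 9 genes are named; of a list up to 4 genes with the smallest adjusted p, and for each gene the 3 with the highest r among genes of at least 1 CPM, without numbered gene models and pseudogenes. Promoters of 7 of the 9 genes were matched in RefSeq. Some listed genes are not reported here.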

Additional observations from a re-analysis of the deposited data

Results flagged for a closer look

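Of 24 groups of 4 or 5 libraries screened for a library far from the others, 2 held one, and chance alone gives about 1 in 20 groups. Both were in wildtype 4. Pkd2 had 146 CPM there, against 173 to 180.3 CPM in the other wildtype libraries, and Pkhd1 had 27.4 CPM, against 62.8 to 73.1 CPM. Wildtype 4 also had the lowest proximal tubule score of all libraries (-1.72), and the part of that score in the 2 values was not tested.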

How the results depend on the processing

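Among the 9 genes, RLE and upper-quartile scaling, a filter of 1 CPM in 3 libraries, DESeq2 and limma-voom each called 3 against wildtype, as reported. In that order these fits called 6.48%, 6.59%, 9.26%, 11.4% and 6.88% of all genes. Against wildtype the count was 1 with no filter beyond 1 count (3.23% of all genes called) and 1 with the Y-linked term (Glis2 both times). It was 0 with only the 2 groups compared, 2 with the proximal tubule covariate and 4 without the 3 libraries low in proximal tubule transcripts. Against Myc it was 2 with DESeq2, with only the 2 groups compared and without those 3 libraries. The calls over all genes also moved: against wildtype DESeq2 called 11.4% of genes, the covariate 10.3%, the fit without the 3 libraries 9.48%, the Y-linked term 4.20% and the 2 groups alone 4.34%, and against Myc DESeq2 called 3.30%, the 2 groups alone 1.15% and the fit without the 3 libraries 1.33%. Leaving out single libraries gave 0 to 4 in both comparisons. For the lists, a check added after seeing the data, 1 gene was called in each comparison with Grhl2KO_Myc. This was Muc1, lower in both, while 2.61% of all genes were lower against wildtype and 0.484% against Myc. The 7 lists hold 10, 4, 8, 8, 7, 9 and 5 tested genes. Against wildtype the list count was 6 with DESeq2 (11.4% of all genes), 3 with the covariate (10.3%) and 9 without the 3 libraries (9.48%). Leaving out single libraries it was 1 to 11, with 11 only without wildtype 4, where 15.9% of all genes were called. Against Myc the list count was 2 with the covariate (1.18% of all genes) and 0 without the 3 libraries (1.33%). Leaving out single libraries it was 0 to 1, against 0.288% to 2.96% of all genes. The cause of these shifts was not tested.

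Replicate numbers are shared between genotypes, and the deviations of same-numbered libraries correlated between -0.11 and 0.23. This check cannot exclude a pairing, the labels state none, and the main fit used none. With a replicate block 0 members were called against wildtype, against 4.18% of all genes.

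Of 207 alternative values of single members in each comparison, 5 against wildtype, 1 against Myc and 18 for Myc against wildtype changed sign. With the sign kept, 34 against wildtype lost a call and 2 gained one, and 10 against Myc gained one. Only Pkd2, Glis2 and Glis3 had a call against wildtype to lose, so the 207 values are not the base for those 34. The values of Muc1, Mir17hg and Pkd2 over Pkd1 given below are not among the 207. On the log2 scale, Ganab against wildtype was at 0.0052 with no filter, 0.038 with the covariate and 0.023 with the replicate block, and against Myc at 0.021 with the covariate. For Myc against wildtype, Glis2 was at 0.0018 with limma-voom, Muc1 at 5.83e-05 with the Y-linked term, and Bicc1 at -0.017 and Dzip1l at -0.036 with the replicate block. Without the 3 libraries Pkhd1 was at -0.048, Bicc1 at -0.015, Ganab at -0.018 and Dzip1l at -0.034. Leaving out single libraries, Ganab against wildtype ranged from -0.059 to 0.013. For Myc against wildtype the ranges were -0.082 to 0.0065 for Pkd1, -0.047 to 0.21 for Pkhd1, -0.040 to 0.075 for Bicc1, -0.017 to 0.061 for Ganab, -0.034 to 0.066 for Dzip1l, -0.093 to 0.033 for Glis2, -0.038 to 0.031 for Muc1, -0.029 to 0.22 for Mir17hg and -0.065 to 0.038 for Pkd2 over Pkd1.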
